A study of Mus musculus with 8 samples.

Results

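The weak H3K4me3 regions listed only in 5M germline stem cells were 4995 of 54585 merged regions, or 9.15%. They were chosen from the authors' peak lists in 4 steps. Peaks of the 4 H3K4me3 lists that shared at least 1 bp were merged, and regions with a peak in neither 60M list and in both 5M lists were kept. Each was given a strength percentile, the rank of its highest maximum immunoprecipitation (IP) signal within its own list. Regions with a mean percentile of 50 or lower over the 5M lists made up the set, and 514 stronger 5M-only regions fell outside it. Without the limit on strength, 5509 regions or 10.1% were listed at 5M only. Because listing and signal of H3K4me3 chose the regions, their H3K4me3 values are given as a description and were not tested.

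H3K4me3 is placed on nucleosomes by the SET1 and MLL methyltransferase complexes and is found mainly at the start sites of active or poised genes, with lower levels at many enhancers. H3K27me3 is placed by Polycomb repressive complex 2 and is read by Polycomb repressive complex 1 at silenced genes. In stem and germ cells many developmental genes carry both marks, a state called bivalent. Germline stem cells are spermatogonial stem cells, the cells that maintain sperm production, propagated in culture.

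The cells were grown for about 60 months (60M) or about 5 months (5M) with human FGF2, rat GDNF and fetal bovine serum. All came from testes of wild type Green mice, whose act-EGFP transgene labels the cells, on a DBA/2 background. Chromatin immunoprecipitation sequencing gave 8 libraries, 2 for each mark and age, from formaldehyde-fixed and sonicated chromatin, with micrococcal nuclease in some lysates that the labels do not name. The labels do not say whether libraries of one age came from separate cultures, or whether the 60M and 5M cells descend from 1 line, so the spread between libraries may be technical.

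The H3K4me3 lists held 43699 and 41637 peaks at 60M, against 45933 and 47415 at 5M. The H3K27me3 lists held 14940 and 13037 peaks at 60M, against 12002 and 14632 at 5M. The mean H3K27me3 peak was 1.97 and 1.95 kb wide at 60M, against 2.15 and 2.38 kb at 5M. The lists hold no read totals, and the depth of the libraries is therefore unknown. A region left out of a list only failed to be called, and the mark may still have been present. Positions are as listed, in bins of 1000 bp, and follow mm9 chromosome lengths. Neither an annotation nor a genome of mm9 was used here, and the regions therefore carry positions but no gene, exon, intron or sequence.

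The regions lay mostly in the lower part of the 5M lists. In 5M library 1 the maximum IP signal of the 4995 regions ran from 10.2 to 212.1 with a median of 64.7, and in 5M library 2 from 9.6 to 297.2 with a median of 81.5. The median H3K4me3 peak of the whole lists reached 183.0 and 179.4 in the same libraries. In percentiles, the regions' medians were 16.4 in 5M library 1 and 23.7 in 5M library 2. The middle 50% of regions spanned 7.93 to 27.8 in library 1 and 13.4 to 34.9 in library 2. The scaling of the signal is not stated, so percentiles within a list are the safer measure.

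**Figure D1:**
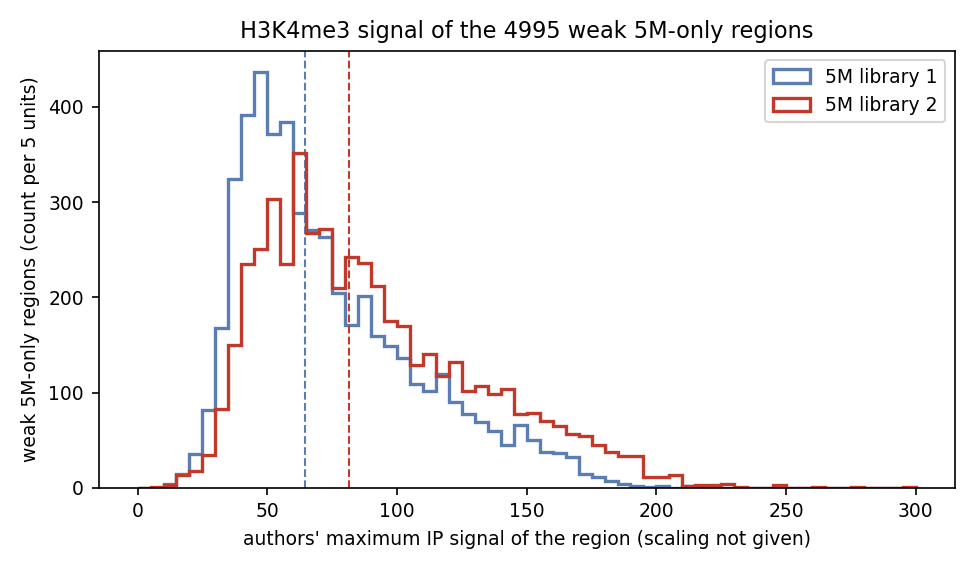
Number of weak 5M-only H3K4me3 regions (vertical axis, count per 5 signal units) by the authors' maximum IP signal (horizontal axis, scaling not given) in 5M library 1 and 5M library 2, with dashed lines at the medians of 64.7 and 81.5. The distribution of library 2 lies to the right of that of library 1, and few regions reach the whole-list medians of 183.0 and 179.4.

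Peak positions were alike in the 5M libraries, and library 2 listed most of the regions at a higher percentile. The highest bin was the same in both libraries at 4735 of 4995 regions (94.8%), and more than 1 kb apart at 3. Across the regions the percentiles of the 5M libraries had a Pearson correlation of 0.85 and a Spearman correlation of 0.85. This is a description over 4995 regions of the same 2 libraries, cut at a common percentile. The percentile was higher in 5M library 2 at 4106 regions (82.2%), with a median difference of 5.32 percentiles. Among the 13057 regions that were in all 4 lists and also had a mean 5M percentile of 50 or lower, it was higher in library 2 at 55.5%, with a median difference of 0.53. Library 2 also gave the wider peak at 655 of the 5M-only regions and library 1 at 108, and the remaining 4232 (84.7%) had equal widths.

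The regions were short. A width of 1 kb, a single bin and the narrowest peak the lists allow, was found for 72.9% in 5M library 1 and 62.3% in 5M library 2, a mean of 67.6 ± 7.52% (SD, n = 2). Among the weak regions in all 4 lists the share was 46.3% and 45.1% in the same libraries, 45.7 ± 0.866%. The mean covered width was 1.33 ± 0.0794 kb in the 5M-only regions and 1.61 ± 0.0140 kb in the weak regions of all 4 lists (SD over the 5M libraries, n = 2 each). The weak 60M-only regions were as short, with 66.6% and 69.5% of 1 kb and mean widths of 1.36 and 1.32 kb in 60M libraries 1 and 2. Narrow peaks were more frequent among the weaker regions of both sets. Among regions of percentile 40 to 50, 48.2% and 34.8% of the 5M-only regions were of 1 kb in 5M libraries 1 and 2, against 27.8% and 25.7% of the regions in all 4 lists. Peaks of over 2 kb numbered 18 in 5M library 1 and 46 in 5M library 2. Only 4 of the 4995 regions held more than 1 peak of a library.

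Many of the regions had low values in the authors' test against the control, as had the weak 60M-only regions. The −log10 p against the control has a floor of 3.01 and a ceiling of 15.95 in the H3K4me3 lists. The ceiling was reached by 21.0% of the weak 5M-only regions in 5M library 1 and by 33.2% in 5M library 2, against 52.4% in each for the weak regions of all 4 lists. Values under 5 were found for 21.0% and 10.6% of the 5M-only regions, against 5.32% and 6.30% of the regions in all 4 lists. In the weak 60M-only regions, 25.1% and 20.7% were at the ceiling and 16.4% and 22.1% under 5 in the 60M libraries. The sets differ in strength, with median percentiles of 16.4 and 23.7 in the weak 5M-only regions, against 30.8 and 31.2 in the weak regions of all 4 lists. At a matched mean percentile the sets did not keep 1 order. Between the 30th and the 40th, 55.8% of the weak 5M-only regions in 5M library 1 and 93.7% in 5M library 2 were at the ceiling. The regions in all 4 lists had 86.3% and 86.2%. Matching on the mean does not match strength within a library. The weak 5M-only regions ranked a median of 5.32 percentiles higher in library 2, and the weak regions of all 4 lists 0.53. The strong 5M-only regions were at the ceiling in 100% of cases in both libraries.

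The weaker an H3K4me3 region was at 5M, the more often it was in neither 60M list. Of the 20815 regions in both 5M lists with a mean percentile of 50 or lower, 4995 (24.0%) were in neither 60M list, 2763 (13.3%) in 1 of them and 13057 (62.7%) in both. By class of 10 percentiles from the lowest, the share in neither list was 37.8%, 33.5%, 25%, 18% and 11.6%. Above the 50th percentile it was 7.31%, 3.19%, 0.630%, 0.0429% and 0%. The share in a lone 60M list ran from 17.5% in the lowest class to 9.63% between the 40th and the 50th percentile. Of the 2763 weak regions found in a lone 60M list, 1670 were in 60M library 1, the longer list, and 1093 in 60M library 2. Even in the lowest class, 44.7% of the regions were in both 60M lists. The limit at 50 cuts through a continuous slope and marks no step. Just inside it, a region on chromosome 10 (68732000 to 68733999) had signals of 177.4 and 184.6 in the 5M libraries and a mean percentile of 49.94. Just outside, a region on chromosome 11 (66960000 to 66961999) had 153.8 and 214.9 and a mean percentile of 50.05.

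**Figure D2:**
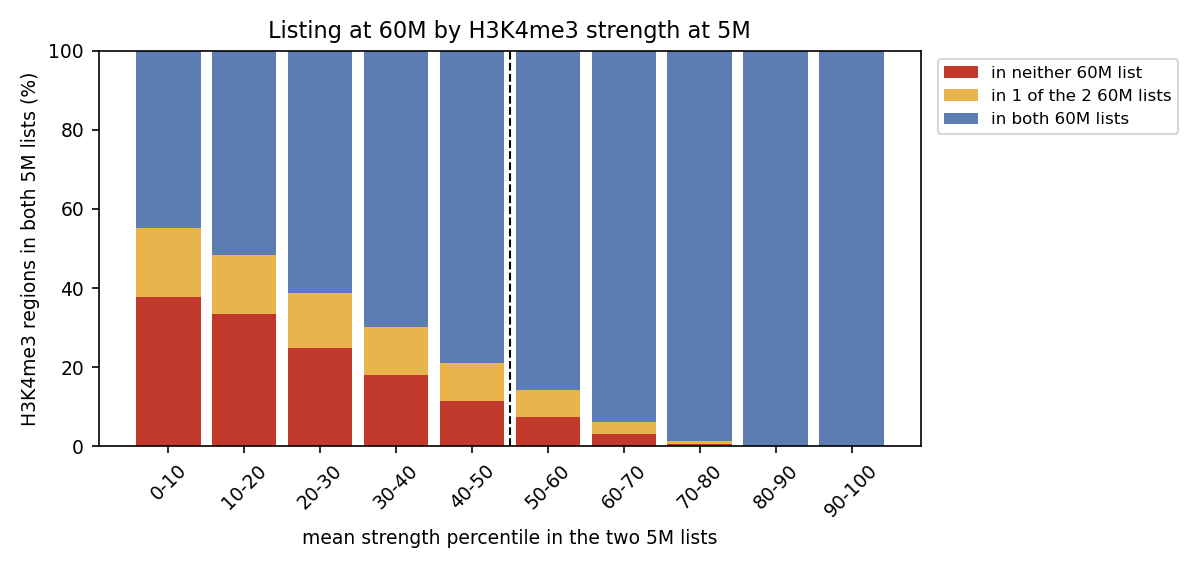
Share of the H3K4me3 regions of both 5M lists (vertical axis, percent) that were in neither, in 1 or in both 60M lists, by class of mean 5M strength percentile (horizontal axis). The red part of the bars left of the dashed line at 50 holds the 4995 weak 5M-only regions, and it falls from 37.8% in the lowest class to 11.6% in the class below the line.

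The strongest of the regions lie, by the rule, just under the 50th percentile. After the chromosome 10 region, the highest mean percentiles belonged to regions on chromosome 2 (132618000 to 132619999) with signals of 168.0 and 194.9 in 5M libraries 1 and 2, and on chromosome 4 (32314000 to 32314999) with 149.1 and 219.4. A second region on chromosome 4 (154015000 to 154016999) reached 168.0 and 194.2. A region on chromosome 7 (3163000 to 3164999) had 132.5 in library 1 and 246.7 in library 2, and one on chromosome 17 (47228000 to 47229999) had 147.5 and 221.6. All 6 were listed at the ceiling of the test against the control in both libraries, and in each the signal of library 2 was the higher one.

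Widths of 4 kb in both 5M libraries were found at 3 regions. They lay on chromosome 19 (42678000 to 42681999, signals 175.1 and 176.3), chromosome 1 (179550000 to 179553999, 155.3 and 146.0) and chromosome 2 (68185000 to 68188999, 142.7 and 123.0). A region on chromosome 8 (108954000 to 108957999) measured 3 kb in library 1 and 4 kb in library 2. A second region on chromosome 8 (106325000 to 106327999) and one on chromosome 12 (103606000 to 103608999) measured 3 kb in both. The chromosome 2 region bordered another H3K4me3 region directly and was 114 kb from the nearest region of all 4 lists, and the others were 4 to 39 kb from any other region. None of these 12 strongest or widest regions had H3K27me3 in both libraries of an age. The chromosome 10 region (68732000 to 68733999) had a peak in 5M library 2. The second chromosome 8 region had one in 60M library 1 and in 5M library 2. Of the 4995 regions, 4.6% had H3K27me3 in both 5M libraries and 1.36% in both 60M libraries. Over all H3K4me3 regions these shares were 6.59% and 4.43%. A count over 12 regions is too small to set against them.

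H3K27me3, the mark the rule did not use, overlapped fewer of these regions in both 60M libraries than in both 5M libraries, and the other weak sets had the same order with smaller differences. A peak shared at least 1 bp with 144 and 136 of the 4995 regions in the 60M libraries, against 285 and 458 in the 5M libraries. As shares these are 2.88% (exact binomial 95% interval 2.44 to 3.39%) and 2.72% (2.29 to 3.21%) at 60M, against 5.71% (5.08 to 6.39%) and 9.17% (8.38 to 10.0%) at 5M. The intervals cover counting error only and take regions as independent, which neighbours are not. The 60M libraries lay close together and both 5M libraries lay above them, library 2 further than library 1. The means were 2.80 ± 0.113% at 60M and 7.44 ± 2.45% at 5M (SD, n = 2 each), a difference of -4.63 percentage points. In an exact two-sided permutation test over the 4 libraries this gave p = 0.33, the smallest p that 2 libraries against 2 allow, so no difference here can pass 0.05. Without 5M library 2 the difference was -2.90 points.

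The ages separated in the same direction at other H3K4me3 regions. At the 13057 weak regions of all 4 lists H3K27me3 overlapped 9.22% and 9.31% in the 60M libraries, against 10.0% and 13.1% in the 5M libraries, a difference of the means of -2.30 points. At the 2413 weak 60M-only regions, the reverse set, it overlapped 2.69% and 2.36% at 60M, against 3.56% and 4.93% at 5M, a difference of -1.72 points. Over all 54585 H3K4me3 regions the means were 6.34 ± 0.199% at 60M and 8.55 ± 1.80% at 5M (SD, n = 2 each), a difference of -2.20 points. At the 514 strong 5M-only regions the ages overlapped, with 2.53% in each 60M library, against 1.75% and 2.53% at 5M. Set against the weak regions of all 4 lists, the gap of the weak 5M-only regions was -6.34 and -6.59 points in the 60M libraries, against -4.30 and -3.97 in the 5M libraries. The test of this difference between the gaps, -2.33 points, gave p = 0.33 by exact permutation, with no overlap of the ages. It likewise cannot pass 0.05.

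In the weak 5M-only regions, strength of H3K4me3 went with the size of the difference. By direct overlap the mean share of the weak 5M-only regions was 1.91% at 60M and 8.67% at 5M in the lowest class of 10 percentiles. In the class of 40 to 50 the ages overlapped, with 2.26% and 0.753% at 60M, against 1.69% and 4.33% at 5M. In the other 4 classes each 60M library lay below each 5M library. From the lowest class, the differences of the means were -6.76, -5.60, -4.31, -2.63 and -1.51 points. At the weak regions of all 4 lists they were -2.56, -2.40, -3.02, -2.31 and -1.59 points. In the class of 40 to 50 the difference was thus no larger in the weak 5M-only regions.

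With peaks up to 1 kb away counted as well, an alternative to direct overlap, the difference was larger. A peak lay on or within 1 kb of 5.21% and 4.88% of the regions in the 60M libraries, against 12.0% and 16.7% in the 5M libraries. Averaged by age this came to 5.05 ± 0.227% at 60M and 14.3 ± 3.27% at 5M (SD, n = 2 each), a difference of -9.30 points (exact permutation test, p = 0.33). On this measure, unlike by direct overlap, the ages overlapped at the weak regions of all 4 lists, with 21.3% and 19.6% at 60M, against 18.1% and 21.4% at 5M. They overlapped also at the weak 60M-only regions, with 9.86% and 8.12% at 60M, against 7.96% and 10.6% at 5M. Over all regions the shares were 15.0% and 13.1% at 60M, against 13.5% and 16.6% at 5M. The strong 5M-only regions had 4.28% and 3.31% at 60M, against 4.47% and 6.81% at 5M. The difference between the gaps to the weak regions of all 4 lists was -9.98 points (exact permutation test, p = 0.33). The values of other sets within 1 kb were added after values had been seen.

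**Figure D3:**
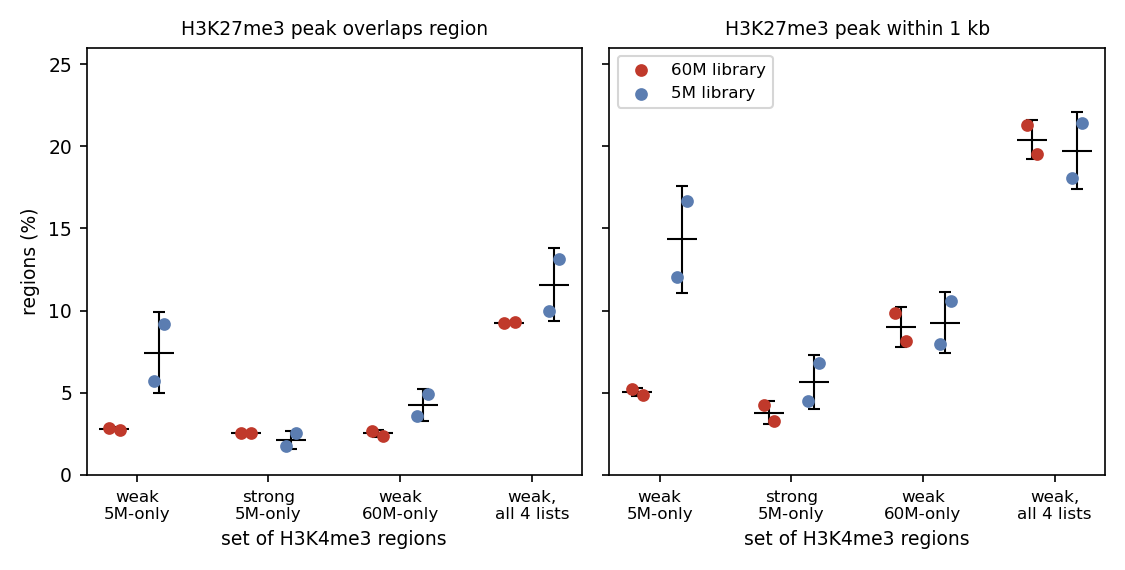
Share of the regions of each set (vertical axis, percent) with an H3K27me3 peak that overlaps the region (left panel) or lies within 1 kb (right panel). Points are libraries, 60M left of 5M, and bars are the mean ± SD of 2 libraries. By overlap the weak 5M-only regions average 2.80% at 60M and 7.44% at 5M, and 60M also lies below 5M for the weak 60M-only regions and the weak regions of all 4 lists. Within 1 kb the weak 5M-only regions average 5.05% at 60M and 14.3% at 5M, and the ages overlap for those other weak sets.

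The values within 1 kb were also taken by class of H3K4me3 strength. There the mean H3K27me3 share of the weak 5M-only regions was 4.52% at 60M and 15.8% at 5M in the lowest class of 10 percentiles, and 3.67% and 8.47% in the class of 40 to 50. In the classes between, the 60M means ran from 5.01% to 5.73% and the 5M means from 11.6% to 16.6%. Each 60M library lay below each 5M library in all 5 classes. At the weak regions of all 4 lists the means of the lowest class were 13.6% at 60M and 14.3% at 5M, and in the class of 40 to 50 they were 21.8% and 19.98%. When every H3K27me3 list was shortened to its 12002 strongest peaks, the shares of the weak 5M-only regions were 3.82% and 4.36% at 60M, against 12.0% and 13.5% at 5M. Shortening made the number of peaks equal, but not the length they cover.

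Counted region by region with both libraries of an age in accord, 12 of the 4995 regions (0.240%) overlapped H3K27me3 in both 60M and neither 5M library, and 147 (2.94%) in both 5M and neither 60M library. Over all 54585 H3K4me3 regions these shares were 0.302% and 1.48%. Within 1 kb, the counts were 11 (0.220%) for 60M and 302 (6.05%) for 5M, against 1.13% and 1.80% of all regions. A further 40 regions (0.801%) overlapped H3K27me3 in all 4 libraries, against 3.61% of all regions. No H3K27me3 peak of any library overlapped 4402 regions (88.1%), near the 87.8% of all regions. Single libraries contributed unevenly. A peak of 5M library 2 alone overlapped 190 regions (3.8%), and one of 5M library 1 alone overlapped 44 (0.881%). Over all regions these shares were 2.09% and 0.41%. At 60M the corresponding counts were 39 (0.781%) for library 1 and 29 (0.581%) for library 2, against 0.736% and 0.689% of all regions.

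The H3K27me3 peaks on these regions were of middling strength. Their median signal was 43.0 and 41.5 in the 60M libraries, against 46.2 and 49.2 in the 5M libraries, which put them at percentiles 41.3 and 35.3, against 50.7 and 53.3, of their own lists. On the weak regions of all 4 lists the peaks were stronger, at percentiles 74.2 and 69.7 at 60M, against 72.6 and 71.7 at 5M. The median peak on the weak 5M-only regions was 1 kb wide in each 60M library. At 5M it was 2 kb wide in library 1 and 3 kb in library 2. The median peak of the whole lists was 1 kb wide in both 60M libraries and 5M library 1, and 2 kb in 5M library 2. On the weak regions of all 4 lists it was 3 kb wide in each library. Peaks of at least 10 kb, the length of broad Polycomb domains, were rare on the weak 5M-only regions. They made up 0.694% and 0.735% of 144 and 136 peaks at 60M, against 1.41% and 1.98% of 283 and 455 at 5M. These shares rest on very few peaks. On the weak regions of all 4 lists they were 6.59% and 3.88% at 60M, against 7.04% and 9.05% at 5M. The H3K4me3 of the 147 regions with H3K27me3 at 5M only was slightly weaker than that of the 4402 regions without it, with median percentiles of 13.4 against 17.01 in 5M library 1 and of 18.6 against 24.0 in 5M library 2.

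Named examples show both kinds. On chromosome 13 (97143000 to 97144999) the H3K4me3 signals were 97.8 and 90.4 in the 5M libraries, under H3K27me3 peaks of 7 kb with signals of 57.1 and 70.7, and neither mark was listed at 60M. On chromosome 1 (36835000 to 36836999) the H3K4me3 signals were 78.1 and 107.5. The H3K27me3 peaks there measured 5 kb with signals of 60.3 and 70.7, and again neither mark was listed at 60M. The same held on chromosome 15 (40932000 to 40934999, H3K4me3 121.5 and 140.1, H3K27me3 49.4 and 73.8) and on chromosome 16 (57627000 to 57628999, H3K4me3 126.2 and 136.4, H3K27me3 52.6 and 69.4). The nearest H3K4me3 region of all 4 lists was 4 kb from the chromosome 1 region and 12 kb from the chromosome 13 region. It was 51 kb from the chromosome 15 region and 19 kb from the chromosome 16 region.

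Other regions had H3K27me3 at both ages, with H3K4me3 listed at 5M only. On chromosome 14 (101597000 to 101599999) the H3K27me3 peak measured 4 and 3 kb at 60M, against 6 kb in both 5M libraries, with signals of 50 and 50.3 at 60M and of 62.3 and 61.2 at 5M. Its H3K4me3 signals at 5M were 71.8 and 94.9. On chromosome 5 (114111000 to 114112999) the H3K27me3 signals were 69.2 and 62.0 at 60M, against 71.9 and 94.0 at 5M. Its H3K4me3 signals at 5M were 123.0 and 127.5. An H3K4me3 region of all 4 lists lay only 1 kb from this chromosome 5 region, so H3K4me3 was listed beside it at 60M. For the chromosome 14 region the nearest such shared region was 130 kb away.

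Few weak 5M-only regions lay next to a shared peak. The median gap to the nearest H3K4me3 region of all 4 lists was 19 kb, and 352 regions (7.05%) lay within 2 kb of one. For the weak regions of all 4 lists the median gap to another such shared region was 16 kb and the share within 2 kb was 9.60%. Weak 60M-only regions had a median of 14 kb and a share of 10.5%, and strong 5M-only regions a median of 11 kb and a share of 10.3%. Direct contact, with no bin between, was rare but more frequent than in the other sets. With a region of all 4 lists it was found for 16 of the 4995 regions (0.320%). That share was 0.0613% in the weak regions of all 4 lists, 0.166% in the weak 60M-only and 0.195% in the strong 5M-only regions. With any region that had a 60M peak it was found for 59 (1.18%), against 0.107%, 0.207% and 0.584% in these sets. These 59 are not merged by the rule, and 4702 weak 5M-only regions were left when peaks across gaps of up to 1 kb were merged as well. A gap of over 100 kb to a shared region was found for 602 regions (12.1%).

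Stronger regions lay closer to shared ones. The share within 2 kb was 3.08% in the lowest class of 10 percentiles and 12.6% in the class of 40 to 50, and the median gap was 37 kb in the lowest class and 12 kb in the class of 40 to 50. In the regions of all 4 lists, the shares of the same classes were 5.51% and 10.6%. The 4 most isolated regions had mean percentiles from 2.85 to 28.4. A 1 kb region on chromosome 5 (10680000 to 10680999, signals 40.2 and 50.4) was 527 kb from any other H3K4me3 region. One on chromosome 6 (79489000 to 79489999, 47.3 and 66.7) was 479 kb away, one on chromosome 13 (10985000 to 10985999, 31.6 and 40) 444 kb, and one on chromosome 1 (115041000 to 115042999, 80.4 and 111.9) 421 kb.

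**Figure D4:**
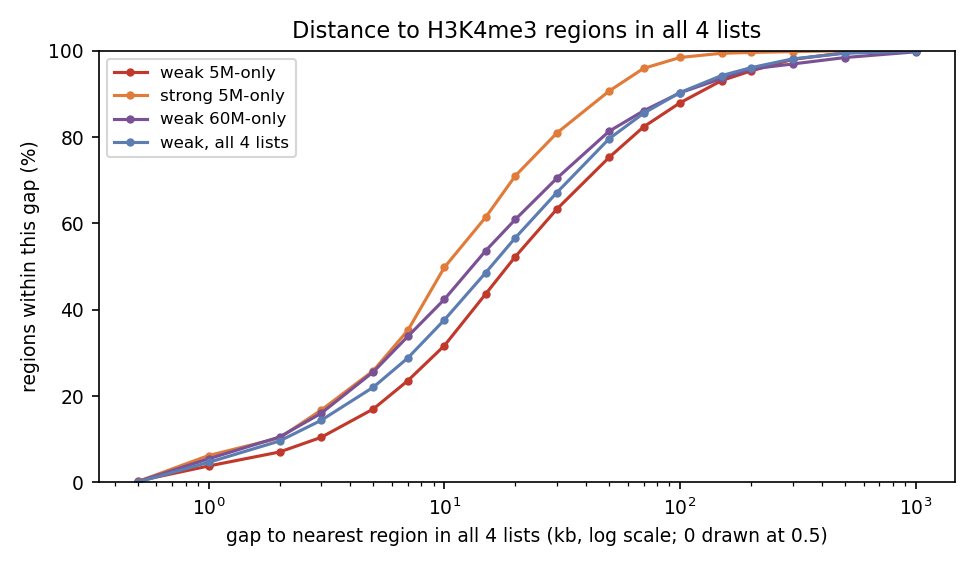
Cumulative share of the regions of each set (vertical axis, percent) by the gap to the nearest H3K4me3 region of all 4 lists (horizontal axis, kb, log scale). Between 1 and 100 kb the weak 5M-only regions lie lowest, with 7.05% within 2 kb and a median gap of 19 kb.

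The regions were spread over all chromosomes, with the lowest share on the X. Of the weak H3K4me3 regions in both 5M lists, 24.3% were in neither 60M list on the 19 autosomes together, and single autosomes ran from 21.0% on chromosome 2 to 27.9% on chromosome 16. On the X chromosome the share was 93 of 640, or 14.5%. The X lay below the autosomes in each class of strength, with 22.7% against 39.2% in the lowest class of 10 percentiles and 2 of 77 (2.60%) against 11.7% in the class of 40 to 50. The 93 X regions were also weaker, with a median mean percentile of 6.82, where autosomes had medians of 16.5 to 23.0. The weak regions of all 4 lists had the same order, with a median of 21.7 on the X and of 28.1 to 33.6 on the autosomes. The rule uses the listing that these shares count, so they were not tested.

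**Figure D5:**
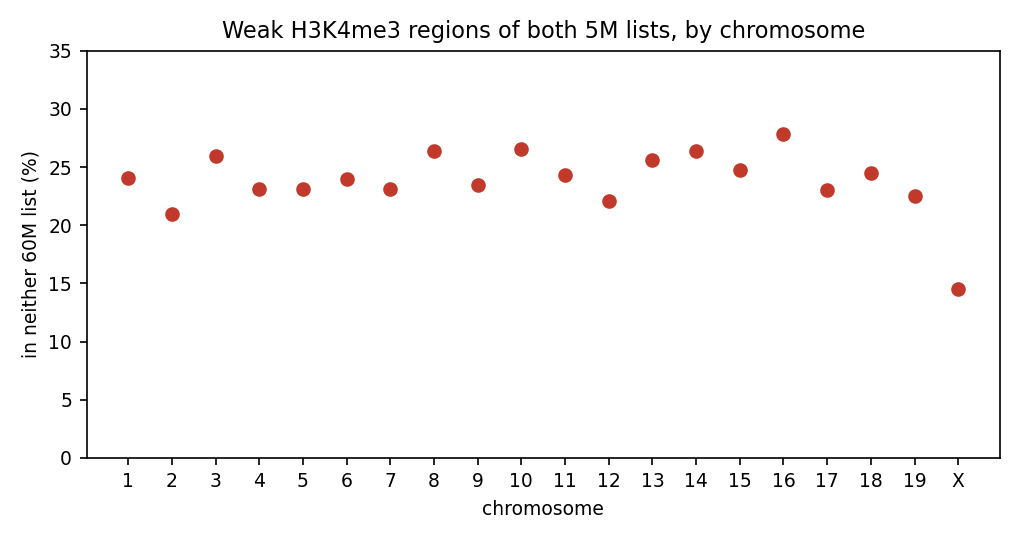
Share of the weak H3K4me3 regions of both 5M lists that were in neither 60M list (vertical axis, percent), by chromosome (horizontal axis), with 1 point for each chromosome. The autosomes lie between 21.0% and 27.9% and the X chromosome at 14.5%.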

How the data were processed

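The authors deposited 1 peak list per library, with borders in bins of 1000 bp. Per the file headers, each peak has a maximum IP signal, −log10 p-values of the IP by itself and relative to the control, and a q-value (at most 0.00097). The submitters' processing notes name Bowtie 1.1.2, CASAVA 1.8.4 and build mm10. The peak caller and the scaling of the signal are not stated in the sources used here. The deposited positions pass the mm10 ends of 9 of 20 chromosomes and the mm9 end of 1, by 688 bp (lengths from GenomeInfoDb 1.38.1), so no gene or sequence was assigned.

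Regions were merged, ranked and measured with Python 3.11.15, scipy 1.17.1, pandas 2.3.3 and numpy 2.4.6, and drawn with matplotlib 3.10.9. The code was tested on simulated lists. Gaps are counted between borders. Direct overlap was the planned H3K27me3 measure, and peaks within 1 kb an alternative to it. The set, the comparisons and the rules were chosen with earlier results of these data known, and the H3K27me3 values by strength class and within 1 kb of other sets were added after values were seen. Named regions, chromosome 18 left out, were the 6 with the highest percentile, the 6 widest, the 6 with the widest H3K27me3 overlap and the 4 most isolated, with the 3 windows of 1 Mb holding most regions. Alternatives were other merging, thresholds, list lengths, distances and left-out libraries. Each p-value is the share of arrangements of the age labels over these libraries that gave a difference at least as large. It does not measure the spread between libraries and refers to these libraries only. Planned marker lists needed an annotation and were not used.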

Additional observations from a re-analysis of the deposited data

How the results depend on the processing

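The number of weak 5M-only regions, 4995, became 3133 with a limit at the 25th percentile, which keeps fewer regions by construction. It ran from 3633 with H3K4me3 lists shortened to 41637 peaks to 7298 under the other alternatives, and from 5585 to 7298 with 1 H3K4me3 library left out, which leaves the call at that age to 1 library. The H3K27me3 difference between 60M and 5M, -4.63 percentage points, kept its sign under all 24 alternatives. These include the replicate block, which by construction leaves the difference unchanged. They also include the strength classes, which are parts of the same regions, and in the class of 40 to 50 the ages overlapped. The difference ran from -4.72 to -4.15 with 1 H3K4me3 library left out. With 1 H3K27me3 library left out it ran from -6.37 to -2.9. Both ranges are given as values without a test. It was -3.3 with H3K27me3 peaks of −log10 p of at least 5, and -2.96 with peaks above the median of each list, an alternative chosen after seeing the data. With the replicate block it was -4.63 points (exact permutation test, p = 0.5, the smallest this design allows). The labels do not say whether the replicate numbers pair the samples. Over regions, the correlation of same-numbered deviations at 60M and 5M was -0.0034 for H3K27me3 and 0.08 for H3K4me3. Such values over regions cannot show how the libraries were prepared.

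The share of regions within 2 kb of a shared region, 7.05%, was 3.42% when peaks within 1 kb were merged, 8.26% at equal list lengths and 4.82% below the 25th percentile. It was 3.8% for 1 kb, 17% for 5 kb and 10.5% for any region with a 60M peak. By class of 10 percentiles it was 3.08%, 5.39%, 8.08%, 10.1% and 12.6%. With 1 library left out it ran from 7.13% to 7.57%. Unknown depth and 2 libraries per group limit all of these values.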

Other observations

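The median gap between regions of the same set was longer in smaller sets. From a weak 5M-only region to the nearest other it was 127 kb, and 4748 of these regions had no other within 10 kb. The remaining ones formed 116 pairs and 5 groups of 3, the tightest on chromosome 10 (82654000 to 82666999), which spans 13 kb. The median gap was 44 kb within the 13057 weak regions of all 4 lists. Within the 2413 weak 60M-only regions it was 213 kb, and within the 514 strong 5M-only regions 699.5 kb. Another region of the set lay within 10 kb for 4.94% of the weak 5M-only regions, against 18.2%, 6.17% and 1.56% in these sets. Of 2543 windows of 1 Mb with any H3K4me3 region, 1913 held at least 1 weak 5M-only region and 258 held 5 or more.

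The fullest window, on chromosome 10 (120000000 to 120999999), held 12, among 37 weak regions of both 5M lists and 76 regions in all. Another window on chromosome 10 (67000000 to 67999999) held 11 of 30 such weak regions. A window on chromosome 13 (47000000 to 47999999) held 10 of 20. In 2 more windows, on chromosomes 8 and 5, there were also 10, of 25 and 32 such weak regions. Over all such weak regions the share was 24.0%, and the windows were picked for their high counts. In the first 3 windows, 4, 2 and 3 regions were listed at 60M only. These counts were not tested.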
